A study of Canis lupus familiaris with 34 samples.

Results

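SESN1, SESN2, FAS and AEN, a set of genes known as direct targets of the tumour suppressor p53, were followed in RNA sequencing libraries of dog osteosarcoma, a bone cancer whose cells resemble bone-forming cells. The genes were chosen by name, as 4 of the 23988 rows of the deposited table, and all 4 passed the filter on low values that left 15165 rows. The 34 libraries comprise 2 cell lines grown from osteosarcoma (OSCA.78 and OSCA.8), 1 culture of osteoblasts (CNOB), the cells that lay down bone matrix, 1 metastasis (DOS.6M) and 30 primary bone tumours. Every library carries the breed label Golden Retriever, although the series text also names Rottweilers. That text says that the lines were derived from earlier primary tumours, and the labels give no genotype, treatment or age for any library. The libraries DOS.46.2 and DOS.46, alike in number, entered as their log2 mean, so that 29 tumours were compared. Levels are FPKM (fragments per kilobase, corrected for the size of the library), and differences are on the scale of log2(FPKM + 1), which understates changes of low genes.

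The transcription factor p53 is activated by DNA damage and other stresses and switches on genes that halt the cell cycle, repair DNA, adjust metabolism or start cell death. The sestrins SESN1 and SESN2 restrain the growth-promoting kinase complex mTORC1 when amino acids are scarce, and SESN2 is also switched on by ATF4, the main transcription factor of amino acid and endoplasmic reticulum stress. FAS is a death receptor at the cell surface and AEN is a nuclease that takes part in the DNA breakdown of apoptosis. These roles come from work in human and mouse cells. Osteosarcoma of dogs and humans is known for large gains and losses of chromosome segments.

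The FPKM of a library summed to 479053 at the least, 623084 in the median and 1418310 in the osteoblast culture, the largest. Between 15328 and 17711 rows had a value above 0. Read numbers were not given. Of the rows, 14335 carry a gene symbol and 9653 carry only an Ensembl identifier, so the p53 targets CDKN1A, BAX, BBC3 and PMAIP1 could not be looked up by symbol and were not used here. Defining markers were checked in each kind of sample. Summed FPKM of 8 bone matrix genes was 3081 in OSCA.8, 2049 in OSCA.78, 5584 in the culture and 3017 in the metastasis, against 3587 to 26537 in the tumours. Gene by gene, the culture minus the tumour mean had a median of -3.12 on the log2 scale over these 8 genes. Of them, 3 lay below every tumour in the culture, as did 19.5% of all genes. For the lines minus the tumours the median was -4.47, and 5 of the 8 fell (limma adjusted p below 0.05), as did 7.92% of all genes. The 14 macrophage genes summed to 1.82 FPKM in OSCA.8, 2.79 in OSCA.78, 25.1 in the culture and 384 in the metastasis, against 99.5 to 1624 in the tumours. The 9 endothelial genes summed to 0.949 in OSCA.8, 1.26 in OSCA.78, 8.13 in the culture and 256 in the metastasis, against 94.7 to 2493 in the tumours. In bulk samples such as these fewer cells of a type and less RNA per cell cannot be told apart. The labels do not say which libraries come from separate animals, so the p-values measure the spread between these libraries, which may in part be technical. DOS.100 and DOS.32, unlike in number, were near alike in the cell type and pathway scores used below. Their macrophage scores were -1.82 and -1.60, their bone matrix scores 0.812 and 0.815 and their fibroblast scores 0.599 and 0.604. Both entered as separate tumours, and whether they come from the same animal was not tested.

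Among the 29 primary tumours, SESN1 had the highest median of the 4 genes per length and SESN2 the lowest. SESN1 ranged from 4.2 FPKM in DOS.75 through a median of 10.4 to 28.7 in DOS.85, with a mean of 11.3 ± 5.09 (SD, n = 29). DOS.85 stood above the rest, since the next tumour, DOS.110, had 19.2 FPKM. SESN2 ranged from 0.922 FPKM in DOS.57 through a median of 2.33 to 5.73 in DOS.115, with a mean of 2.60 ± 1.33 (SD, n = 29). Its values ran without a gap up to the next highest tumour at 4.97 FPKM.

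FAS was the most variable of the 4 genes. It ranged from 2.11 FPKM in DOS.75 through a median of 9.98 to 48.5 in DOS.70, a 23-fold range, with a mean of 12.9 ± 9.47 (SD, n = 29). The next tumour, DOS.6, had 26.4 FPKM. AEN ranged from 5.08 FPKM in DOS.112 through a median of 7.98 to 22.1 in DOS.76, a 4.35-fold range, with a mean of 9.58 ± 4.41 (SD, n = 29). DOS.76 and DOS.70, at 22.1 and 19 FPKM, were its highest tumours. On the log2 scale the SD between tumours was 0.94 for FAS, which was larger than that of 88.1% of the 15165 genes. The SDs of SESN1 (0.55), AEN (0.54) and SESN2 (0.52) lay near the median of all genes (0.54).

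The order of the medians, SESN1 above FAS, FAS above AEN and AEN above SESN2, had its widest step at the low end. SESN1, FAS and AEN had medians of 10.4, 9.98 and 7.98 FPKM, and these neighbours differed by less than the SD between tumours of either gene. SESN2, at 2.33 FPKM, lay below AEN by more than the SD of either, and its highest tumour (5.73 FPKM) only just passed the lowest tumour of AEN (5.08 FPKM).

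**Figure D1:**
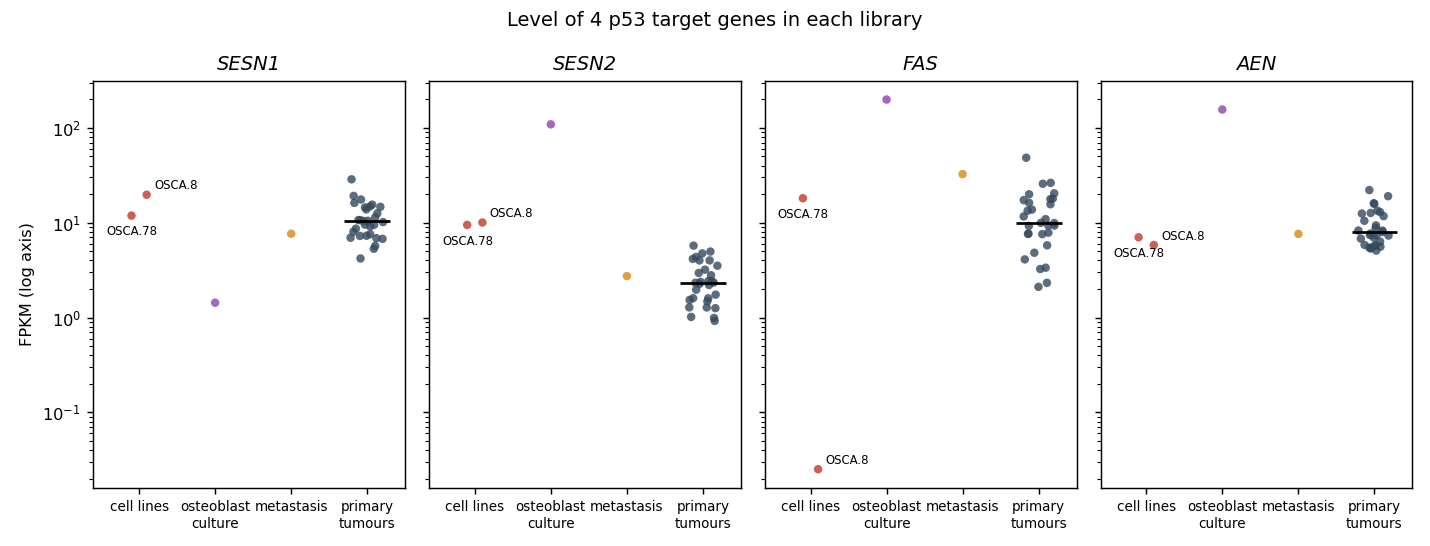
FPKM (log axis) of SESN1, SESN2, FAS and AEN in every library, with 1 point per library for the cell lines, the osteoblast culture, the metastasis and the 30 primary tumour libraries; the bar is the median of the 29 tumours. SESN2 of both lines lies above every tumour, FAS of OSCA.8 lies at 0.0251 FPKM, and the culture lies above every tumour for SESN2, FAS and AEN and below every tumour for SESN1.

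The cell lines were set against the primary tumours gene by gene. The plot of the 4 genes by kind of sample shows SESN2 as the gene in which both lines lay outside the tumour range. SESN2 had 10.1 FPKM in OSCA.8 and 9.49 FPKM in OSCA.78, against 0.922 to 5.73 FPKM in the tumours. It rose in the lines by 1.67 ± 0.38 in log2 units (SE; limma adjusted p = 0.00252 over all genes, 2 lines against 29 tumours). Of all genes tested 16.4% passed in this comparison (8.49% higher and 7.92% lower in the lines), and 4.04% had both lines above every tumour. With OSCA.8 as the only line the difference was 1.71 (limma adjusted p = 0.0899), and with OSCA.78 as the only line it was 1.63 (limma adjusted p = 0.0394).

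SESN1 had 19.7 FPKM in OSCA.8 and 11.9 FPKM in OSCA.78, and both values fell inside the tumour range of 4.2 to 28.7 FPKM. The difference was 0.52 ± 0.40 in log2 units (SE; limma adjusted p = 0.401, 2 lines against 29 tumours). The third sestrin, SESN3, had 22.4 FPKM in OSCA.8 and 4.96 FPKM in OSCA.78, against 2.04 to 19.5 FPKM in the tumours, and did not pass either (0.13 ± 0.50, limma adjusted p = 0.877). AEN had 5.82 FPKM in OSCA.8 and 7.02 FPKM in OSCA.78, against 5.08 to 22.1 FPKM in the tumours. Both lines lay below the tumour median of AEN, and the difference of -0.41 ± 0.39 (SE) did not pass (limma adjusted p = 0.499).

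FAS split the lines. It had 0.0251 FPKM in OSCA.8 and 18.1 FPKM in OSCA.78, against 2.11 to 48.5 FPKM in the tumours. OSCA.8 lay below every tumour, as for 10.6% of genes, and OSCA.78 above the tumour median. Of the 16428 values above 0 in OSCA.8, 4.53% were lower than that of FAS. The pooled difference was -1.37 ± 0.75 in log2 units (SE; limma adjusted p = 0.215, 2 lines against 29 tumours), and its sign depended on the line. With 0.1 FPKM added in place of 1 it was -2.77 (limma adjusted p = 0.0444). It was -3.48 with OSCA.8 as the only line (limma adjusted p = 0.0306) and 0.74 with OSCA.78 as the only line (limma adjusted p = 0.630).

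The primary tumours DOS.8 and DOS.78 carry the numbers of the lines in their titles, although the labels do not say that a shared number means the same dog. SESN2 had 10.1 FPKM in OSCA.8 against 2.33 in DOS.8, and 9.49 FPKM in OSCA.78 against 1.26 in DOS.78. FAS had 0.0251 FPKM in OSCA.8 against 3.36 in DOS.8, and 18.1 FPKM in OSCA.78 against 9.92 in DOS.78. In both pairs the line was thus higher for SESN2, while for FAS the pairs went opposite ways.

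SESN2 is also a target of ATF4, so ATF4 and its other known targets were set beside it. Of 22 such genes tested, ATF4 included, 8 rose in the lines and 0 fell, with a median difference of 0.61 on the log2 scale against -0.05 over all genes. CHAC1, which degrades glutathione, had 56.7 FPKM in OSCA.8 and 47.5 FPKM in OSCA.78, against 2.32 to 31.6 FPKM in the tumours (2.70 ± 0.50, limma adjusted p = 3.34e-04). PSAT1, an enzyme of serine synthesis, had 348 FPKM in OSCA.8 and 251 FPKM in OSCA.78, against 15.3 to 137 FPKM in the tumours (2.81 ± 0.56, limma adjusted p = 7.04e-04). The asparagine synthetase ASNS rose by 2.54 ± 0.69 on the same scale (limma adjusted p = 0.0106). The bone, macrophage and endothelial marker sums given above also differed between lines and tumours, and their part in these differences was not tested.

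The other p53 targets went both ways in the lines. Of 60 listed genes 44 could be tested, of which 5 rose and 2 fell, with a median of -0.05 on the log2 scale, as over all genes. Over all genes 8.49% rose and 7.92% fell in this comparison, which is the background for each list set against the lines. PERP, a membrane protein of p53-dependent death and of cell junctions, had 14.1 FPKM in OSCA.8 and 6.14 FPKM in OSCA.78, against 0.0212 to 3 FPKM in the tumours (2.62 ± 0.42, limma adjusted p = 4.47e-05). The ferredoxin reductase FDXR rose by 1.24 ± 0.34 (limma adjusted p = 0.0120), and the transcriptional repressor PRDM1 had a difference of -2.01 ± 0.53 (limma adjusted p = 0.00903). The death-related AIFM2 rose by 1 ± 0.32 (limma adjusted p = 0.0306), the calcium channel subunit ORAI3 by 1.07 ± 0.29 (limma adjusted p = 0.00974) and the growth factor TGFA by 0.98 ± 0.20 (limma adjusted p = 7.91e-04). Of 8 DNA repair targets 0 passed, and the lowest adjusted p was that of the damage sensor DDB2 (1.12 ± 0.46, limma adjusted p = 0.0881).

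Of 8 regulators of p53, 2 fell in the lines. The damage kinase ATR had 3.02 FPKM in OSCA.8 and 1.75 FPKM in OSCA.78, against 4.92 to 16.6 FPKM in the tumours (-1.60 ± 0.31, limma adjusted p = 4.84e-04). MDM4, an inhibitor of p53, had 2.46 FPKM in OSCA.8 and 1.87 FPKM in OSCA.78, against 2.84 to 11.2 FPKM in the tumours (-1 ± 0.31, limma adjusted p = 0.0231). Both genes lay below every tumour in both lines, as did 7.3% of genes. MDM2, the ligase that degrades p53 and is itself a p53 target, had 75.3 FPKM in OSCA.8 and 20.1 FPKM in OSCA.78, against a tumour median of 45.3. A single tumour, DOS.28, had 487 FPKM of MDM2, against 65.5 FPKM in the next. In DOS.28 the 4 targets were near their tumour medians, at 9.55 FPKM of SESN1, 2.2 FPKM of SESN2 and 9.37 FPKM of FAS, with AEN somewhat above at 11.7 FPKM.

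Around the receptor, 12 genes of the FAS pathway and related death receptor signalling, ligand included, could be tested, of which 0 rose and 1 fell. That gene was CFLAR, an inhibitor of death receptor signalling, with 6.18 FPKM in OSCA.8 and 2.52 FPKM in OSCA.78, against 6.53 to 39.0 FPKM in the tumours (-1.67 ± 0.45, limma adjusted p = 0.00931). FASLG, the ligand of FAS made mainly by lymphocytes, was listed at 0 in both lines and had at most 1.54 FPKM in any tumour. Among 20 sestrin partners and mTORC1 regulators, 4 rose and 2 fell. The GATOR2 subunits, to which sestrins bind, went both ways, since WDR59 rose by 1.14 ± 0.31 (limma adjusted p = 0.0110) and MIOS had a difference of -1.296 ± 0.39 (limma adjusted p = 0.0202). The GATOR1 subunit NPRL3 rose by 1.07 ± 0.33 (limma adjusted p = 0.0228). None of 5 nucleases related to AEN passed, the lowest adjusted p being that of REXO4 (0.86 ± 0.37, limma adjusted p = 0.11).

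The osteoblast culture lay outside the tumour range for all 4 genes, but it is 1 library and allows no test. SESN2 had 109 FPKM in the culture, against at most 5.73 FPKM in the tumours, a 19-fold gap to the highest tumour. In the deposited values FAS had 199 FPKM in the culture, 4.11 times its highest tumour, and AEN had 156 FPKM, 7.07 times its highest tumour. Of all genes, 22% were higher in the culture than in every tumour and 1.64% were over 4 times the highest tumour. SESN1 went the other way, with 1.43 FPKM in the culture, below all 29 tumours, as for 19.5% of genes. On the log2 scale the culture minus the tumour mean was 5.03 for SESN2, 4.13 for FAS, 4 for AEN and -2.23 for SESN1, with a median of -0.14 over all genes. Scaling the libraries to a common upper quartile moved that median to -0.49 and lowered the differences to 4.35 for SESN2, 3.45 for FAS and 3.32 for AEN. Quantile normalisation gave 4.18 for SESN2, 3.09 for FAS and 3.05 for AEN, and all 4 signs were kept under both.

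Proliferation genes were low in that culture. It lay below every tumour for 41 of 45 proliferation genes, with 0.339 FPKM of the proliferation antigen MKI67 against 1.3 to 34.6 FPKM in the tumours. Of the 22 genes of the ATF4 list, which counts ATF4 itself, 13 were above every tumour in the culture, with a median difference of 2.28 on the log2 scale. CHAC1 had 583 FPKM in the culture, against at most 31.6 FPKM in the tumours, and ATF4 itself 1095 FPKM, against at most 710. Of the 44 other p53 targets, 7 were above and 7 below every tumour, with a median of 0.60. Over all genes 22% lay above and 19.5% below every tumour in the culture, the background for each list here. The p53 targets exceeded neither share. In the deposited values the p53 targets above every tumour included BTG2, an inhibitor of proliferation, with 99.6 FPKM against at most 84.0 FPKM in the tumours. ORAI3 had 115 FPKM against at most 33.9. The upper quartile of values above 0 was 33.8 FPKM in the culture and 21.4 in DOS.110, the highest tumour of BTG2. BTG2 was 1.19 times that tumour, so its place above every tumour depends on the scaling. The list counts for the culture were not repeated under other scalings. The macrophage and endothelial marker sums of the culture were below those of every tumour. Its 8 skeletal muscle genes summed to 709 FPKM, against 2.57 to 302 in the tumours, but 708 FPKM of that came from the actin gene ACTA1, and TNNT1, TNNT3 and MB were listed at 0. The part of these markers in the differences was not tested.

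The metastasis was within the tumour range for all 4 genes, while 5.0% of genes lay above and 3.53% below every tumour there. It had 7.66 FPKM of SESN1, 2.74 of SESN2, 32.6 of FAS and 7.62 of AEN. DOS.6, the primary tumour with the same title number, had 10.6 FPKM of SESN1, 4 of SESN2, 26.4 of FAS and 7.70 of AEN. The differences, metastasis minus DOS.6, were -0.43, -0.42, 0.29 and -0.01 on the log2 scale for these genes, each smaller than the SD between tumours. FAS was thus high in both libraries of that number. Its bone matrix sum lay below that of every tumour, and its part in these values was not tested. With 1 library there is no test.

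The relation to proliferation was examined in the 29 tumours with a score, the mean z-score of 45 cell cycle genes (20 of the G1/S phases and 25 of G2/M). All 4 genes had a negative slope on this score, and the slope of FAS passed. FAS changed by -0.51 ± 0.14 log2 units per SD of the score (SE; limma adjusted p = 0.0206 over all genes). In the same fit 9.58% of genes passed, 4.91% with a positive and 4.67% with a negative slope. Pearson's r was -0.548 (permutation p = 0.00209, adjusted over all genes 0.0304) and Spearman's rho was -0.517 (permutation p = 0.00467, adjusted 0.0607), tests that 9.36% and 6.79% of genes passed. Without DOS.101 and DOS.76, the tumours farthest from the median score, r was -0.462 and the limma slope of -0.42 had an adjusted p of 0.107.

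The values behind this slope can be read at its ends. The tumours with the lowest scores, DOS.76, DOS.115, DOS.70 and DOS.110, had 17.7, 25.8, 48.5 and 18 FPKM of FAS. The tumours with the highest scores, DOS.101, DOS.105 and DOS.73, had 2.32, 5.78 and 13.8 FPKM of FAS. DOS.75, with the lowest FAS of all, had a score near the middle (-0.24), so low FAS was not limited to the highly proliferating tumours.

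SESN2 did not pass. Its slope was -0.25 ± 0.09 log2 units per SD (SE; limma adjusted p = 0.0740), with r = -0.482 (permutation p = 0.00859, adjusted 0.0725) and rho = -0.429 (permutation p = 0.0210, adjusted 0.144). With MKI67 alone as the score the slope was -0.017 (limma adjusted p = 0.934), without the 2 farthest tumours it was -0.20 (limma adjusted p = 0.242), and without DOS.115 it was also -0.20 (limma adjusted p = 0.201). Leaving out DOS.110, DOS.57 or DOS.90 in turn brought its limma adjusted p to 0.0474, 0.0393 and 0.0344. DOS.76, DOS.115 and DOS.70, among the least proliferating tumours, had 4.35, 5.73 and 4.75 FPKM of SESN2, but DOS.110 had 1.60. DOS.101, DOS.105 and DOS.73, at the other end, had 1.28, 2.43 and 1.02 FPKM.

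AEN and SESN1 did not pass. The slope of AEN was -0.19 ± 0.10 (SE; limma adjusted p = 0.222), with r = -0.355 (permutation p = 0.0598, adjusted 0.231) and rho = -0.241 (permutation p = 0.206, adjusted 0.487). The slope of SESN1 was -0.10 ± 0.10 (SE; limma adjusted p = 0.617), with r = -0.179 (permutation p = 0.352, adjusted 0.627) and rho = -0.164 (permutation p = 0.394, adjusted 0.673). Without the 2 farthest tumours r was -0.394 for SESN2, -0.228 for AEN and -0.119 for SESN1. The median r of all genes with the score was -0.031. SESN3 had a slope of -0.25 ± 0.12 (limma adjusted p = 0.176).

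**Figure D2:**
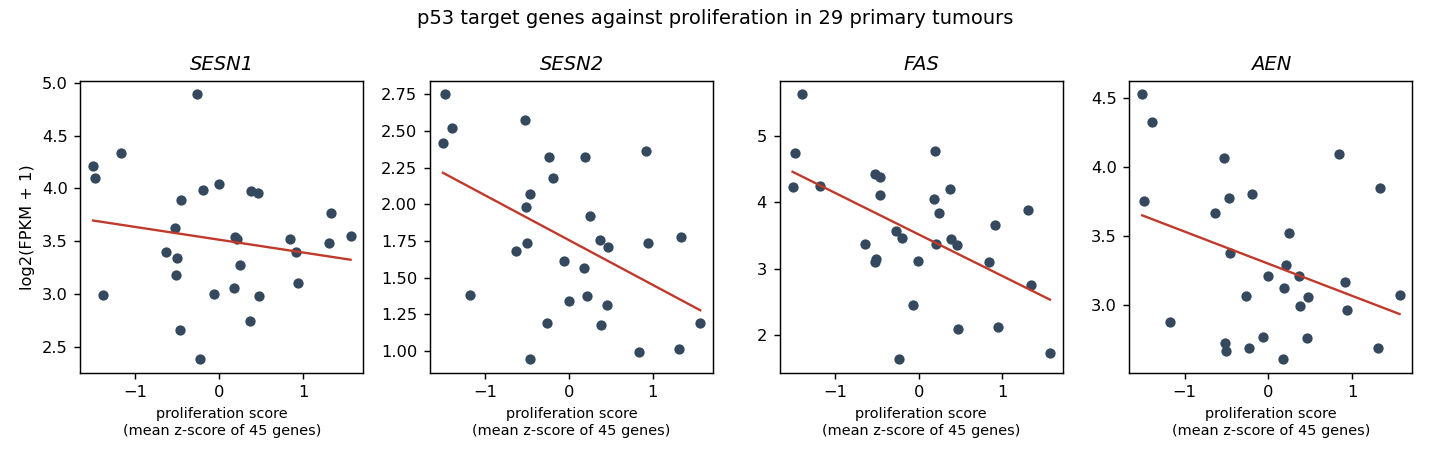
Level of each p53 target gene, as log2(FPKM + 1), against the proliferation score of 45 genes in 29 primary tumours, 1 point per tumour, with the fitted limma slope as a line. The line falls most for FAS (-0.51 per SD of the score), less for SESN2 (-0.25) and AEN (-0.19) and least for SESN1 (-0.10).

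The scatter plots of level against score show wide spread around each line, so the 45 genes were also taken singly. All 45 correlated negatively with SESN2, 44 with FAS, 44 with AEN and 40 with SESN1, while between 46.3% and 48.7% of all genes did so. The median r was -0.461 for FAS, -0.408 for SESN2, -0.292 for AEN and -0.168 for SESN1. These are descriptions, since the 45 genes move together and share the same tumours. FAS had its lowest values with the spindle checkpoint kinase BUB1 (-0.673) and with UBE2C (-0.650), which tags mitotic cyclins for destruction. SESN2 had its lowest with the mitotic kinase TTK (-0.595) and the spindle motor KIF11 (-0.582), and AEN with cyclin A2, CCNA2 (-0.561), and BUB1 (-0.522). For SESN1 the lowest were CDC20, an activator of mitotic exit (-0.357), and CDCA8, a chromosomal passenger protein (-0.348).

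At the upper end, RRM1, a subunit of ribonucleotide reductase, was the highest for FAS (0.066) and AEN (0.070) and had -0.157 with SESN2. The replicative helicase subunit MCM7 had -0.177 with FAS and the flap nuclease FEN1 -0.015 with AEN. SESN2 had its highest r with MKI67 (-0.033), and SESN1 with the primase PRIM1 (0.093) and with cyclin E2, CCNE2 (0.081). The score of G2/M genes alone gave an r of -0.585 for FAS, -0.498 for SESN2, -0.410 for AEN and -0.204 for SESN1. The score of G1/S genes gave -0.472 for FAS, -0.438 for SESN2, -0.264 for AEN and -0.137 for SESN1. FAS passed with the G2/M score (-0.55, limma adjusted p = 0.0108) and not with the G1/S score (-0.44, limma adjusted p = 0.0657), and the difference between the scores was not tested.

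**Figure D3:**
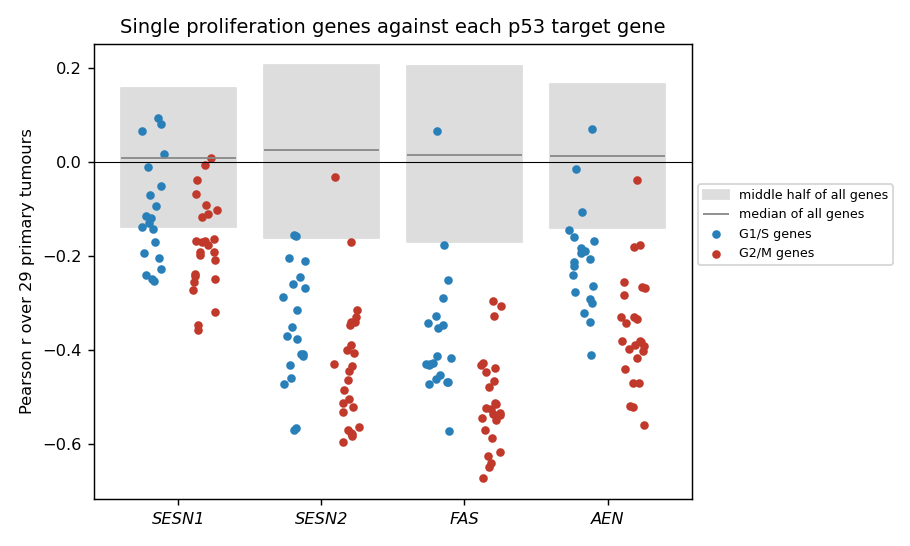
Pearson r over 29 primary tumours between each p53 target gene and each of 45 proliferation genes (20 G1/S and 25 G2/M genes, 1 point each), with the median and the range between the quartiles of all genes in grey. Most points lie below the grey band for FAS (44 of 45), SESN2 (42) and AEN (41), and 26 do for SESN1.

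Beside the plot of single proliferation genes stand the slopes of other p53 targets on the score. Of 44 tested, 0 passed with a positive and 5 with a negative slope, with a median slope of -0.12 against -0.02 over all genes. Over all genes 4.91% passed with a positive and 4.67% with a negative slope, which is the background for each list set against the score. GADD45A, a stress protein of growth arrest, had a slope of -0.76 ± 0.22 (limma adjusted p = 0.0260) and reached 176 FPKM in DOS.110 against a tumour median of 16.8. BTG2 had -0.64 ± 0.20 (limma adjusted p = 0.0389) and was also highest in DOS.110, at 84.0 FPKM. The carboxylesterase CES2 had -0.59 ± 0.19 (limma adjusted p = 0.0409), the stress kinase PLK3 -0.40 ± 0.13 (limma adjusted p = 0.0453) and the oxidoreductase TP53I3 -0.26 ± 0.07 (limma adjusted p = 0.0197). CES2 was highest in DOS.32 and DOS.100, the tumours of near alike scores, at 30.1 and 28.8 FPKM against a tumour median of 2.57. None of 8 repair targets passed, and the translesion polymerase POLH had the lowest adjusted p among them (0.35 ± 0.12, limma adjusted p = 0.0632).

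Among 8 regulators of p53, CHEK1, a checkpoint kinase of S phase, was the 1 gene that passed, with a positive slope of 0.34 ± 0.08 (limma adjusted p = 0.00336). FOXO factors also switch on sestrin genes. Of 9 genes listed as FOXO factors or genes tied to them, 5 passed with negative slopes and the list's median was -0.44. PIK3IP1, an inhibitor of PI3 kinase, had -0.66 ± 0.10 (limma adjusted p = 4.74e-05), the transcription factor KLF9 -0.53 ± 0.14 (limma adjusted p = 0.0115) and the redox protein TXNIP -0.51 ± 0.13 (limma adjusted p = 0.0128). Of 12 FAS pathway genes 2 passed with negative slopes, the survival protein BCL2 (-0.38 ± 0.11, limma adjusted p = 0.0201) and CFLAR (-0.37 ± 0.10, limma adjusted p = 0.0119). Among the 22 genes of the ATF4 list 3 were positive and 1 negative, with PSAT1 at 0.45 ± 0.12 (limma adjusted p = 0.0178), the cysteine-forming enzyme CTH at 0.37 ± 0.10 (limma adjusted p = 0.0113) and the phosphatase subunit PPP1R15A at -0.58 ± 0.15 (limma adjusted p = 0.0102). Of 20 sestrin partners and mTORC1 regulators the GTPase RRAGB alone passed (-0.29 ± 0.09, limma adjusted p = 0.0357).

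The 4 genes were then set against each other among the tumours. Of 6 pairs, 0 passed limma's test over all genes, in which 1.0% of genes passed with FAS and 0 genes with SESN1, SESN2 or AEN. FAS and AEN had the highest r, 0.447 (permutation p = 0.0150, limma adjusted p = 0.176) with rho = 0.380 (permutation p = 0.0432), and r was 0.285 without the 2 tumours farthest in FAS. SESN2 had r = 0.365 with AEN (limma adjusted p = 0.334) and 0.324 with FAS (limma adjusted p = 0.378). SESN1 had r = 0.219 with FAS, 0.172 with AEN and -0.078 with SESN2 (limma adjusted p = 0.793, 0.869 and 0.953). DOS.70 was high in FAS and AEN (48.5 and 19 FPKM) but had 6.95 FPKM of SESN1, and DOS.85, the highest in SESN1, had 1.28 FPKM of SESN2.

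Levels were also set against 8 scores of cell types and pathways in the tumours, which gives 32 relations. The relation of FAS to the score of 9 endothelial genes was the 1 that passed. FAS changed by 0.53 ± 0.14 log2 units per SD of that score (SE; limma adjusted p = 0.0208, with 6.05% of genes passing). Pearson's r was 0.561 (permutation p = 0.00165), rho was 0.601 (permutation p = 7.20e-04), and r without the 2 farthest tumours was 0.608. All 9 endothelial genes correlated positively with FAS, with a median r of 0.537, while 48.0% of all genes correlated negatively with it. All 9 were also positive with SESN1, SESN2 and AEN, at lower median r of 0.290, 0.265 and 0.163. The endothelial score itself had r = -0.439 with the proliferation score. With the endothelial score added to the fit, the slope of FAS on proliferation was -0.35 ± 0.15 (limma adjusted p = 0.183). With the T cell and macrophage scores added it was -0.53 (limma adjusted p = 0.0217).

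AEN did not pass with the macrophage score (r = 0.441, permutation p = 0.0165, limma adjusted p = 0.123) or the interferon response score (r = 0.419, permutation p = 0.0233, limma adjusted p = 0.334). SESN2 did not pass with the score of ATF4 targets (r = 0.406, permutation p = 0.0279, limma adjusted p = 0.808), with which 0.0132% of genes passed. SESN1 had r = 0.352 with the macrophage score (permutation p = 0.0616, limma adjusted p = 0.245). None of the 4 genes passed with the T cell, bone matrix, fibroblast or skeletal muscle scores. Of all genes 6.73% passed with the macrophage score, 1.06% with the interferon response, 0.89% with the T cell, 1.27% with the bone matrix, 0.0593% with the fibroblast and 0.138% with the skeletal muscle score.

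Among rows with a gene symbol, those with the most similar pattern over the 29 tumours were sought for each gene. For FAS they were STAMBPL1, a deubiquitinase (r = 0.815), RNLS (0.793), MINPP1, a phosphatase of inositol phosphates (0.760), the gap junction protein GJA4 (0.751) and the endothelial and blood cell transcription factor FLI1 (0.742). The lowest for FAS were KCTD13 (-0.735), the helicase RUVBL2 (-0.709) and LRR1 (-0.699). For SESN1 the highest were the SUMO protease SENP6 (0.660), the interferon gamma receptor IFNGR1 (0.660), ARMC2 (0.658), FAM129C (0.656) and the prostacyclin receptor PTGIR (0.654), and the lowest were SHF (-0.654), the tRNA ligase MARS (-0.649) and the sterol enzyme NSDHL (-0.641). For SESN2 the highest were the kinase PRKCD (0.714), PPME1 (0.659), the actin regulator WASF2 (0.649), EPN2 (0.648) and DEGS2 (0.646). Its lowest were ERGIC3 (-0.667), the ubiquitin ligase partner UBE2T (-0.654) and the centromere protein CENPN (-0.649).

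For AEN the highest were the myeloid nuclear protein MNDA (0.684), FAM129B (0.671), the myeloid receptor GPR84 (0.656), TNFSF8 (0.653) and the lysosomal protease CTSH (0.652), and the lowest were the growth factor receptor FGFR4 (-0.591), MZF1 (-0.576) and CHGA (-0.575). STAMBPL1, RNLS and MINPP1 lie beside FAS in the gene order of the RefSeq annotation of assembly UU_Cfam_GSD_1.0. ARMC2 lies next to SESN1 and WASF2 within 20 places of SESN2.

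The neighbours of each gene were therefore examined, a step chosen after the values had been seen. In that order none of the 4 genes overlaps a protein-coding neighbour found by symbol among the deposited rows. Neighbours without such a row, ACTA2 next to FAS among them, were not checked for overlap. Within 20 protein-coding places on either side, FAS had 12 neighbours past the filter, with a median r of 0.687 and a range of 0.330 to 0.815 over the tumours. Of these, 9 had an r above 0.5, as had 2.82% of all genes with FAS. SESN1 had 29 such neighbours with a median r of 0.225, SESN2 had 31 with 0.212, and AEN had 22 with 0.181. Of those neighbours 2, 2 and 1 had an r above 0.5, as had 0.897%, 1.38% and 0.752% of all genes with SESN1, SESN2 and AEN. The median r over all genes was 0.007 with SESN1, 0.026 with SESN2, 0.012 with AEN and 0.015 with FAS. All 4 neighbour medians lay above these.

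**Figure D4:**
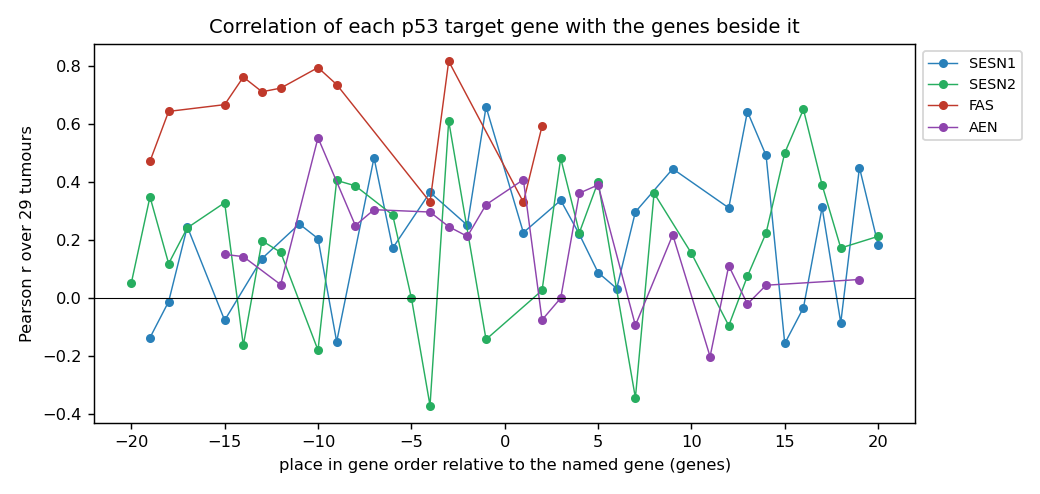
Pearson r over 29 primary tumours between each p53 target gene and the genes beside it, by place in the gene order (0 is the gene itself, 1 point per measured neighbour). The points of FAS lie between 0.330 and 0.815, while those of SESN1, SESN2 and AEN scatter around medians of 0.225, 0.212 and 0.181.

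In the plot of neighbours the high values of FAS lie mostly at places before it, since the order ends 2 places after it, with LIPA. The mean z-score of its 12 neighbours had r = 0.886 with FAS and r = -0.581 with the proliferation score. With that mean added to the fit, the slope of FAS on proliferation was -0.05 ± 0.11 (limma adjusted p = 0.867). DOS.75, DOS.101 and DOS.84 had the lowest neighbour means, and their FAS levels of 2.11, 2.32 and 3.25 FPKM were the lowest of all tumours. DOS.6 and DOS.115 had the highest neighbour means, with 26.4 and 25.8 FPKM of FAS. DNA copy number was not measured, so its part in these values was not tested.

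The low FAS of OSCA.8 was shared by the genes around it. The bounds of the stretch, MINPP1 and LIPA, were set after these values had been seen. Counts within it therefore describe the stretch and are no test against the shares of all genes. From MINPP1 to LIPA 10 genes past the filter were measured, FAS included, and all 10 were below 0.05 FPKM in OSCA.8, with a highest value of 0.0395 FPKM. Of these, 8 genes had a tumour median of at least 2 FPKM, a group in which 1.83% of all genes were below 0.05 FPKM in OSCA.8. The lysosomal lipase LIPA had 0.0395 FPKM in OSCA.8, against 9.84 to 89.0 FPKM in the tumours. PAPSS2, which makes the donor for sulfation, had 0.00807 FPKM, against 0.735 to 36.5 FPKM, and the membrane ATPase ATAD1 had 0.0263 FPKM, against 0.678 to 25.7 FPKM. SGMS1, a sphingomyelin synthase just before MINPP1, was at 30.9 FPKM in OSCA.8, the height of the highest tumour at 30.6 FPKM, and CSTF2T before it was at 24.1 FPKM.

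In OSCA.78 a different stretch was low, and 4 of the same 8 genes were below 0.05 FPKM, against 1.92% of all genes with such a median. MINPP1, PAPSS2 and ATAD1 were at 0.00963, 0.0173 and 0.0268 FPKM in OSCA.78, and SGMS1 was at 0.00810 FPKM, against 1.19 to 30.6 FPKM in the tumours. Past them RNLS had 0.423 FPKM and STAMBPL1 1.88 FPKM in OSCA.78, FAS had 18.1 FPKM and LIPA 34.7 FPKM. CH25H, which makes 25-hydroxycholesterol and lies between FAS and LIPA, was listed at 0 in OSCA.78. The stretch shared by both lines thus runs over MINPP1, PAPSS2 and ATAD1.

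**Figure D5:**
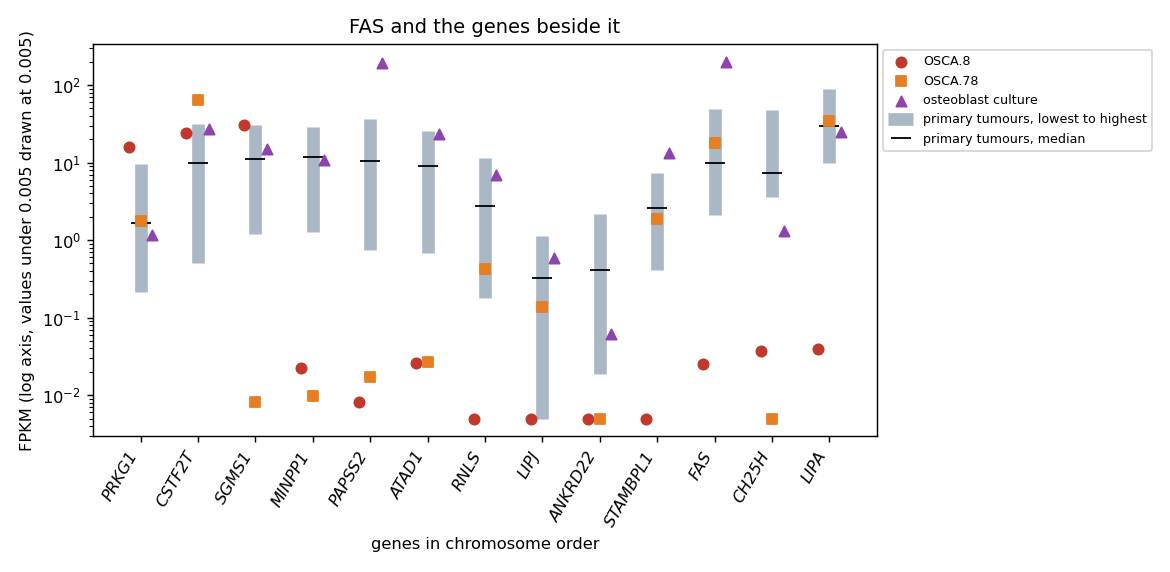
FPKM (log axis, values under 0.005 drawn at 0.005) of FAS and its measured neighbours in gene order, for OSCA.8, OSCA.78, the osteoblast culture and the 29 primary tumours (bar from lowest to highest, line at the median). In OSCA.8 the genes from MINPP1 to LIPA lie below 0.05 FPKM, and in OSCA.78 FAS (18.1 FPKM) and LIPA (34.7 FPKM) lie within the tumour range while MINPP1, PAPSS2 and ATAD1 do not.

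In the plot of FAS and its neighbours the tumour bars end above the low points of the lines for most genes. For the 8 genes with a tumour median of at least 2 FPKM, the lowest value in any tumour was 0.177 FPKM, and 0 tumours had any of them below 0.05 FPKM. Macrophage and endothelial marker sums were far higher in every tumour than in the lines, and in bulk libraries a level near 0 in the tumour cells alone cannot be told apart from a low level in all cells. In the osteoblast culture 0 of the 10 genes were below 0.05 FPKM, and PAPSS2 was at 194 FPKM beside 199 FPKM of FAS. Of the 8 genes with a tumour median of at least 2 FPKM 0 were thus below 0.05 FPKM there, against 2.19% of all genes with such a median. DOS.8 had 3.18 FPKM of MINPP1, 3.60 of ATAD1 and 30.5 of LIPA, and DOS.78 had 7.75 FPKM of MINPP1, 5.21 of ATAD1 and 53.8 of LIPA.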

How the data were processed

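The authors deposited 1 table of expression values per gene and library, whose header names no unit. It was read as FPKM, since the submitters' processing notes list TopHat2 2.0.13, Cufflinks 2.2.1 and FastQC 0.11.2 with the assembly canFam3, and the column sums differ. Their parameters and the gene annotation were not given. Per the labels' protocols, libraries were made from total RNA with TruSeq RNA v2. Genes reaching 1 FPKM in 2 or more libraries entered the fits, and 1 FPKM was added before log2. All genes were fitted in limma 3.58.1 under R 4.3.3 (trend and robust eBayes, two-sided, Benjamini-Hochberg over all genes, threshold 0.05), and the scripts were tested on simulated data. Permutation tests used 100000 resamples (Python 3.11.15, numpy 2.4.6, scipy 1.17.1). DOS.46 and DOS.46.2 were averaged because their deviations from the other tumours correlated at r = 0.760. The 4 genes, the gene lists and the tests were chosen with earlier results of these data known. For each list and comparison the text names up to 3 passing genes with the largest change, or those with the smallest adjusted p, with a few others named as description after their values were seen. Similar genes are the 5 highest and 3 lowest by r among rows with a symbol. Of the symbols, 13096 were found in the RefSeq table of assembly UU_Cfam_GSD_1.0, used for names and gene order only. Other pseudocounts, filters, scalings, scores, covariates and left-out libraries were tried.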

Additional observations from a re-analysis of the deposited data

How the results depend on the processing

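In the comparison of lines with tumours, the SESN2 difference kept its call under 7 of 8 settings other than leaving out a line, and lay between 1.63 and 1.71 (adjusted p 0.0394 to 0.0899) with 1 line, where the lone line is assumed to vary like the tumours. The FAS difference was -2.77 (limma adjusted p = 0.0444) with 0.1 FPKM added in place of 1 and lay between -3.48 and 0.74 with 1 line. Called genes numbered 344 without OSCA.78 and 1998 without OSCA.8, and 1288 rose and 1201 fell, against 962 and 1388 under upper quartile scaling and 1345 and 970 under quantile normalisation. With a replicate block pairing OSCA.8 with DOS.8 and OSCA.78 with DOS.78, SESN2 had 1.97 (limma adjusted p = 0.139), FAS -0.64 (limma adjusted p = 0.660) and 0 genes were called. The shared numbers were not taken as a pairing, since the labels do not say what they mark and only 2 pairs exist. The difference between the lines correlated at r = 0.269 with that between the tumours, and DOS.6 correlated best of all tumours with DOS.6M (r = 0.510). SESN1 and AEN did not pass under any setting run in either comparison.

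The FAS slope on proliferation lost its call with the G1/S score (-0.44), MKI67 alone as the score (-0.41, limma adjusted p = 0.0808), without the 2 farthest tumours (-0.42), in Spearman's test (-0.517) and, in settings added after the values were seen, with the endothelial score (-0.35) or the neighbours of FAS (-0.047) in the fit. Without single tumours it lay between -0.57 and -0.41 and lost the call without DOS.101, DOS.115 or DOS.70 (limma adjusted p = 0.0792, 0.0523 and 0.0661). The SESN2 slope lay between -0.29 and -0.20 without single tumours. Called genes numbered 1453, against 786 without the 2 farthest tumours, 834 with the endothelial score, and 887 (without DOS.101) to 1571 without single tumours. For the osteoblast culture, settings added after the values were seen gave SESN2 4.35 (upper quartile) and 4.18 (quantile), FAS 3.09 (quantile), and AEN 3.32 (upper quartile) and 3.05 (quantile). The number of reads is not given, so the counting error of low values such as FAS in OSCA.8 cannot be set.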
